A study of Mus musculus with 24 samples.

Results

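The interleukin-1 (IL-1) system and the inflammasome were followed through 10 genes: the cytokine genes Il1b and Il18, the antagonist gene Il1rn, the receptor genes Il1r2 and Il1rap, the sensor gene Nlrp3, the adaptor gene Pycard, the caspase genes Casp1 and Casp4 and the pore gene Gsdmd. They were selected by gene symbol, without a threshold on their values but with earlier results of these data known. They are 10 of the 53715 genes listed for the study. The further gene lists below were also chosen with those results known. Counts set beside the share of all genes are therefore a description. All 10 passed the filter on low values (at least 50 in at least 1 of 24 libraries), which 11230 genes passed.

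IL-1β and IL-18 are made as inactive precursors that lack a signal for secretion. A sensor such as NLRP3 binds the adaptor ASC, the product of Pycard, which gathers caspase-1, and caspase-1 cleaves both precursors and gasdermin D, whose released end forms pores in the cell membrane. Blood monocytes are known sources of IL-1β, and the transcript of Il1b is typically raised through Toll-like receptors (TLR) and NF-κB before any cleavage takes place. The libraries measured RNA, so neither cleavage nor release of cytokine was measured.

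Ly6Chi and Ly6Clo monocytes were sorted from peripheral blood (PB) of C57BL/6 mice aged 8 to 10 weeks. Mice carried either a Notch2 mutant genotype (N2ΔMy), in which Cre made from the Lyz2 locus removes Notch2 in myeloid cells, or were littermate controls (wt), and both genotypes carried the Cx3cr1 gfp/+ reporter used for sorting. Ly6Chi cells came from Sham-treated mice, given a Vaseline cream according to the labels (the study's methods call the controls of the sorted cells untreated or naive, so whether they received cream is not settled), or from mice given 50 mg of Aldara per day, a cream with 5% of the TLR7 agonist imiquimod (IMQ). Ly6Clo cells came from IMQ-treated mice only, so the subsets were compared after IMQ. Mice were killed on day 5, and each of the 6 groups held 4 libraries. The labels give each library a replicate number but do not say whether a library came from 1 mouse or from pooled mice, so p-values measure the spread between libraries.

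Notch2 was lower in all N2ΔMy libraries than in any wt library of the same subset and treatment, but was not lost: its mean normalized count was 17766 ± 1799 (SD, n = 4) in wt and 10753 ± 950 in N2ΔMy Ly6Clo cells. The transcript is therefore a partial check of the genotype. The classical monocyte markers Ly6c2, Ccr2, Vcan and F13a1 summed to 50251–62627 normalized counts in wt Ly6Chi and to 476–1686 in wt Ly6Clo cells after IMQ, and the 7 markers of patrolling monocytes to 32357–49023 and 152888–175465, which matches the subset labels. In N2ΔMy Ly6Clo cells the classical sum was 6923–9869 and the patrolling sum 85630–103106, both outside the wt Ly6Clo range. In bulk RNA, a different share of a cell type and a different amount of RNA per cell cannot be told apart. The 12 neutrophil genes summed to 8594–15253 in wt and 9632–14905 in N2ΔMy Ly6Chi cells after IMQ, with 1151–2861 and 1427–2640 for Lcn2 and 1936–3660 and 2420–3253 for Mmp8, while Ly6g was at 0 in all 16 libraries of IMQ-treated mice and at most 1 in the others. The 4 B cell genes summed to between 807 and 3872 in every library, from 2051–3225 in wt Sham Ly6Chi to 863–2009 in wt Ly6Clo cells, with Ms4a1 at 3 or less throughout. Of 6 T and NK cell genes, the sum was at most 18 in any library. The inferred depth was 9522376 to 19760126 reads per library.

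The 250 bases before the annotated start are shown for Il1b, Il18, Nlrp3 and Pycard, whose levels differed between groups in different directions. Sequences are from RefSeq on GRCm38.p6, read 5′ to 3′ on the strand of the gene, with matches to the searched motifs in capitals.
Il1b, chr2:129371140-129371389, minus strand: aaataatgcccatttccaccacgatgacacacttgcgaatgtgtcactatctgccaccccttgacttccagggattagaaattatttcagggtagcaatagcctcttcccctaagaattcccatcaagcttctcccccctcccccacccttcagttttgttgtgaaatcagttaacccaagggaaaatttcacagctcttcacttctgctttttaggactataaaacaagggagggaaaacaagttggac
Il18, chr9:50554450-50554699, plus strand: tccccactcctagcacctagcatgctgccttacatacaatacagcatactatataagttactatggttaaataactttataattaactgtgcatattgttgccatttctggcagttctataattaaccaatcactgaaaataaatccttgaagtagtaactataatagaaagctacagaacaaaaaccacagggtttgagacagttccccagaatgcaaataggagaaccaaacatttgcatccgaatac
Nlrp3, chr11:59541319-59541568, plus strand: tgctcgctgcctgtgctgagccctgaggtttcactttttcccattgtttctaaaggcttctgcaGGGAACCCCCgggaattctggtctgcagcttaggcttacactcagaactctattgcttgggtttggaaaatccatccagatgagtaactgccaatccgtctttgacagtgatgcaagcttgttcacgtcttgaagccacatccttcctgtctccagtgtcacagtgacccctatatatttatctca
Pycard, chr7:127993868-127994117, minus strand: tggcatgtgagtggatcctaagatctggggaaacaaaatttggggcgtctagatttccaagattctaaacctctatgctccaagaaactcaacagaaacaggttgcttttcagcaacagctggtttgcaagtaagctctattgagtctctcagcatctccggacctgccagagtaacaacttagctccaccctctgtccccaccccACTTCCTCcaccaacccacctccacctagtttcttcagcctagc
Promoters were found for 9 of the 10 members, all but Gsdmd. Both strands were searched for the NF-κB motif by name and for ISRE (GAAA, then NN, then GAAA), GAS (TTCNNNGAA), AP-1 (TGANTCA) and PU.1 (GAGGAAGT). The Nlrp3 window held 1 NF-κB match, from 186 to 177 bases before the start, and the Pycard window 1 PU.1 match, from 44 to 37 bases before it, both on the strand opposite to the gene. An NF-κB match is found in 3.90% and a PU.1 match in 2.44% of 32851 promoter windows of that length. The windows of Il1b and Il18 held none of these letters. Among the other 5 windows, Casp4 had 2 overlapping NF-κB matches, Il1rn 1 AP-1 match and Il1r2 1 GAS match, and those of Casp1 and Il1rap had none. The Il1r2 window (chr1:40085843-40086092) lies inside the gene as counted (from 40074079 to 40125231) and overlaps an exon of Il1r2. AP-1 and GAS matches occur in 6.75% and 7.02% of all windows. A match is a description of the letters and not of binding.

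The transcripts did not move as a block. Il1b was the highest in Ly6Clo cells and low in all Ly6Chi groups, and Nlrp3 and Il18 went the opposite way. Pycard peaked in Ly6Chi cells of IMQ-treated mice, and Casp1 was not called in any comparison. In the F-test over the 6 groups, 7 of 10 members passed an adjusted p of 0.01, against 43.0% of all tested genes. Il1r2 is among the 7, although it passed the filter only through Ly6Chi libraries, the side where it is higher. That count is therefore in part fixed by the filter. The smallest values were those of Nlrp3 (adjusted p = 8.1e-14) and Il1b (2.5e-10), and the members that did not pass were Il1rap (0.0108), Il1rn (0.0204) and Casp1 (0.686), in limma with Benjamini-Hochberg adjustment. With libraries of the same replicate number paired in the fit, 9 members passed.

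**Figure D1:**
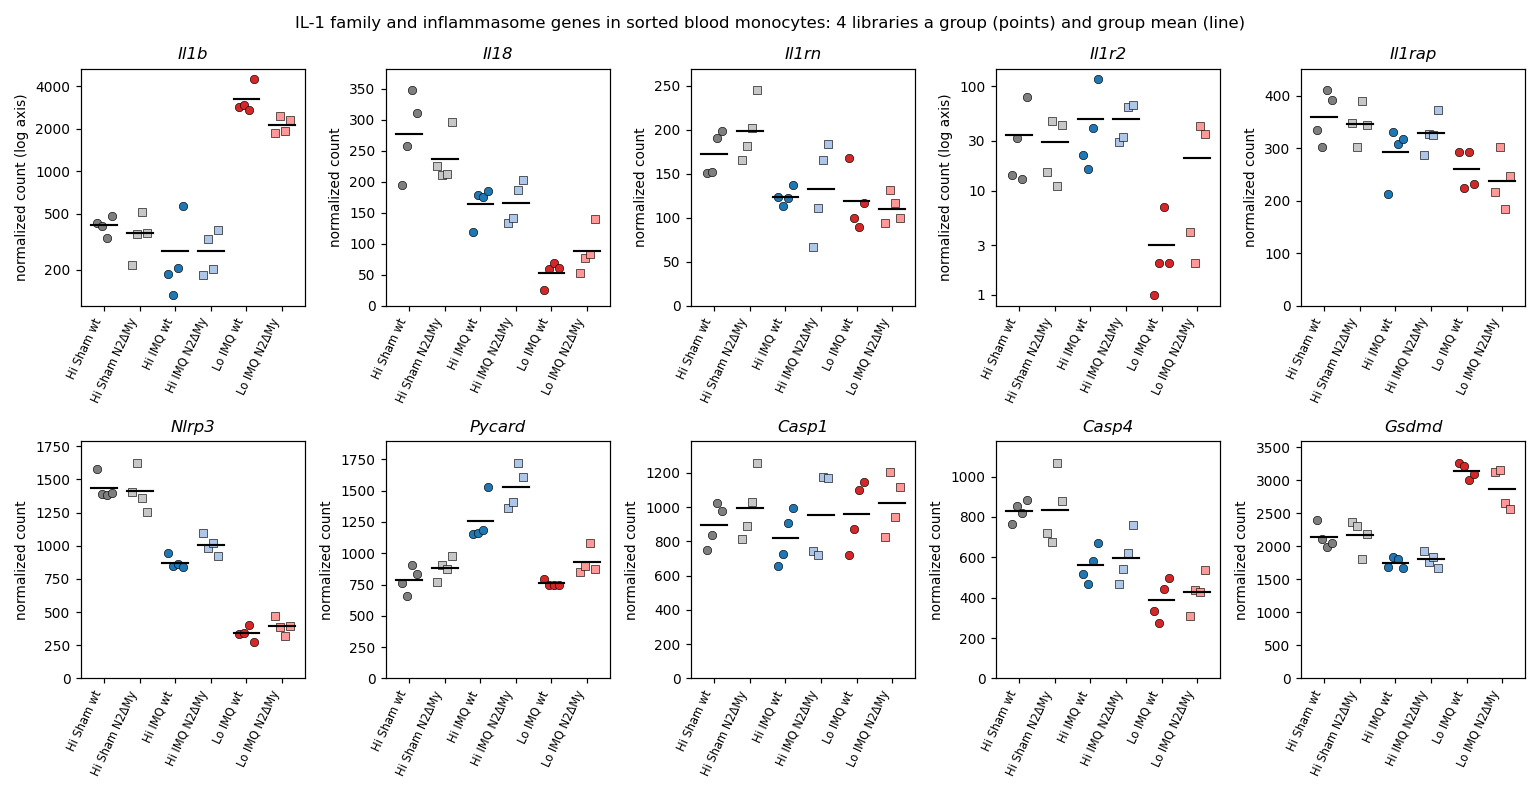
Normalized counts of the 10 members in the 24 libraries, with 1 point per library and a line at the group mean; the axes of Il1b and Il1r2 are logarithmic and the others start at 0. The 8 Ly6Clo libraries sit between 1884 and 4495 for Il1b, above every Ly6Chi library, and between 278 and 469 for Nlrp3, below every Ly6Chi library.

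Il1b (ENSMUSG00000027398.13, chromosome 2, 129364570–129371139, minus strand, GRCm38) encodes the precursor of IL-1β. In wt Ly6Clo cells of IMQ-treated mice its normalized counts were 2868, 2955, 2718 and 4495 in replicates 1 to 4, and in wt Ly6Chi cells of such mice 187, 133, 207 and 568. In N2ΔMy mice they were 1884, 2474, 1917 and 2298 in Ly6Clo and 183, 330, 201 and 382 in Ly6Chi cells. The subsets were apart by a wide gap in both genotypes. The mean was 11.9-fold higher in wt Ly6Clo than in wt Ly6Chi cells (log2 fold change 3.77 ± 0.37 SE, adjusted p = 2.1e-05) and 7.82-fold higher in N2ΔMy cells (3.02 ± 0.22, adjusted p = 4.3e-06). Here and below, folds are ratios of mean counts and log2 fold changes are differences of mean log2 values, so the 2 can differ. Replicates 1 and 2 and replicates 3 and 4 carry separate runs of library numbers. Within the first run the log2 fold change was 4.20 in wt and 3.13 in N2ΔMy cells, and within the second 3.35 and 2.92. Over 25 bases its exons overlap the antisense gene Il1bos, which reached 40 at most.

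Sham-treated Ly6Chi cells had 427, 411, 338 and 478 normalized counts of Il1b in wt and 218, 357, 515 and 366 in N2ΔMy mice. No change of Il1b with IMQ was called in Ly6Chi cells. In wt mice 3 of the 4 IMQ libraries lay below the Sham range and replicate 4 above it, and the log2 fold change of -0.82 ± 0.36 did not pass (adjusted p = 0.16). It was -1.24 without that replicate (adjusted p = 0.00306), -1.40 within replicates 1 and 2 and -0.23 within replicates 3 and 4. In the fit with the replicate block (libraries of the same number paired), the adjusted p was 0.0247. The same library had the highest neutrophil gene sum of its group, 15253 against 8594–9293 in the other 3, and the highest red cell gene sum, 753 against 1, 10 and 27. The wt Ly6Clo library with 4495 counts of Il1b likewise had a red cell sum of 1286 against 2, 13 and 92 and a platelet sum of 273 against 115–123. Replicate 4 also had the highest red cell sum in the N2ΔMy Ly6Chi (1531) and Ly6Clo (1543) groups after IMQ. The sort was negative for a lineage mix that includes Ly6G and Ter119, which mark neutrophils and red cells, and positive for CD115. The part of these genes in the Il1b values was not tested. In N2ΔMy mice the log2 fold change was -0.41 (adjusted p = 0.42).

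Il18 (ENSMUSG00000039217.13, chromosome 9, 50554827–50581840) encodes the second precursor cleaved by caspase-1. It went down in steps: 194, 258, 348 and 311 in wt Ly6Chi cells after Sham, 119, 179, 176 and 185 after IMQ, and 25, 59, 68 and 60 in wt Ly6Clo cells. These 3 groups did not overlap. In N2ΔMy mice the values were 225, 211, 212 and 296, then 134, 141, 187 and 203, then 53, 77, 84 and 139, and the last group reached into the range of the middle one. Il18 was 3.11-fold lower in wt Ly6Clo than in Ly6Chi cells (log2 fold change -1.69 ± 0.31, adjusted p = 0.00171) and 1.88-fold lower in N2ΔMy cells (-0.97 ± 0.28, adjusted p = 0.0283). Its fall with IMQ passed in wt cells (-0.74 ± 0.21, adjusted p = 0.0393) but not in N2ΔMy cells (-0.51, adjusted p = 0.104), and the difference between these changes did not pass either (interaction 0.23 ± 0.29, adjusted p = 1). With the replicate block the N2ΔMy fall had an adjusted p of 0.0427 in limma and stayed under the fold threshold. Its Sham and IMQ libraries did not overlap, and Il18 was lower in 4 of 4 same-numbered pairs. The treatment call in wt cells was lost in 7 of the 8 fits that left out 1 library (adjusted p up to 0.0998), all but the one without Sham replicate 1. The subset call in N2ΔMy cells was lost in 4 of 8 (up to 0.0808), those without Ly6Clo replicate 1 or 2 or Ly6Chi replicate 3 or 4.

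Il1rn (ENSMUSG00000026981.15, chromosome 2, 24336853–24351494) encodes the receptor antagonist, which occupies the IL-1 receptor without signalling. Its counts in wt Ly6Chi cells were 151, 152, 190 and 198 after Sham and 124, 113, 122 and 137 after IMQ, without overlap, yet the log2 fold change of -0.47 did not pass (adjusted p = 0.0796). In N2ΔMy cells they were 166, 182, 202 and 245 after Sham and 67, 111, 166 and 184 after IMQ (-0.67, adjusted p = 0.179), which passed with the replicate block (adjusted p = 0.0437). The subsets did not differ detectably in either genotype (log2 fold changes -0.10 and -0.17, adjusted p = 0.742 and 0.731), and both Ly6Clo groups together spanned 89 to 168. Per kilobase of exon, the ratio of Il1b to Il1rn was 3.42 to 12.0 in the 16 Ly6Chi libraries and 47.6 to 112 in the 8 Ly6Clo libraries. The size of the ratio depends on the exon lengths used (1907 and 5535 bases), but the contrast between subsets does not.

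Il1r2 (ENSMUSG00000026073.13, chromosome 1, 40074079–40125231) encodes the decoy receptor, which binds IL-1 without passing on a signal. It was the lowest member, and reached the filter value of 50 in Ly6Chi libraries only, the side where it is higher, so its subset values are a description. The wt Ly6Clo libraries had 1, 2, 7 and 2 normalized counts and the wt Ly6Chi libraries of IMQ-treated mice 22, 16, 40 and 117, with no overlap (log2 fold change -3.42 ± 0.72, adjusted p = 0.00349). In N2ΔMy mice the Ly6Clo libraries had 4, 2, 42 and 35 and the Ly6Chi libraries 29, 33, 64 and 67, so that replicates 3 and 4 of the Ly6Clo group lay in the Ly6Chi range and replicates 1 and 2 near 0. The log2 fold change there was -1.90 ± 0.82 (adjusted p = 0.118 in limma, 0.0168 with the replicate block and 0.00736 with the run as a covariate). It came to -3.04 within replicates 1 and 2 (adjusted p = 0.00682) and -0.76 within replicates 3 and 4 (0.138). Without Ly6Clo replicate 3 it was -2.50 (adjusted p = 0.0442). At counts this low a fold change depends on the pseudocount of 1. Classical markers summed to 9869, 9597, 8966 and 6923 in the 4 N2ΔMy Ly6Clo libraries in that order, and dendritic cell genes to 302, 205, 1450 and 589; their part in the Il1r2 values was not tested.

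Il1rap (ENSMUSG00000022514.14, chromosome 16, 26581704–26730117) encodes the accessory chain shared by the IL-1, IL-33 and IL-36 receptors. It stayed between 185 and 411 in all libraries, and every pair of neighbouring groups in the order of means overlapped, from 238 ± 50.4 in N2ΔMy Ly6Clo to 360.5 ± 50.2 in wt Ly6Chi Sham cells. No change of Il1rap was called. The nearest was the subset difference in N2ΔMy cells, with 216, 303, 185 and 248 in Ly6Clo and 287, 328, 325 and 373 in Ly6Chi libraries, lower in 4 of 4 same-numbered pairs (log2 fold change -0.48 ± 0.17, adjusted p = 0.0605, or 0.0246 with the replicate block). It passed both thresholds within the second run (-0.70, adjusted p = 0.0308) and without Ly6Clo replicate 2 (-0.60, adjusted p = 0.0223). The signalling receptor gene Il1r1 was at or near 0: at most 21 in any library.

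Nlrp3 (ENSMUSG00000032691.14, chromosome 11, 59541568–59566956) encodes the sensor. Its normalized counts in wt mice were 1579, 1394, 1382 and 1401 in Sham Ly6Chi cells, 948, 845, 861 and 839 in IMQ Ly6Chi cells, and 335, 340, 405 and 278 in IMQ Ly6Clo cells. In N2ΔMy mice they were 1407, 1624, 1363 and 1253, then 1096, 986, 1021 and 923, then 469, 387, 319 and 395. In each genotype the 3 groups formed separate bands. The subset difference was of like size in both genotypes: 2.57-fold lower in wt Ly6Clo cells (log2 fold change -1.37 ± 0.13, adjusted p = 1.3e-05) and 2.56-fold lower in N2ΔMy Ly6Clo cells (-1.37 ± 0.13, adjusted p = 2.4e-05), with a 95% interval of -0.37 to 0.38 for the interaction. With IMQ, Nlrp3 fell in wt Ly6Chi cells (-0.72 ± 0.08, adjusted p = 3.6e-04), and in N2ΔMy Ly6Chi cells the change of -0.48 ± 0.10 was past the adjusted p (0.00889) but not the fold threshold.

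**Figure D2:**
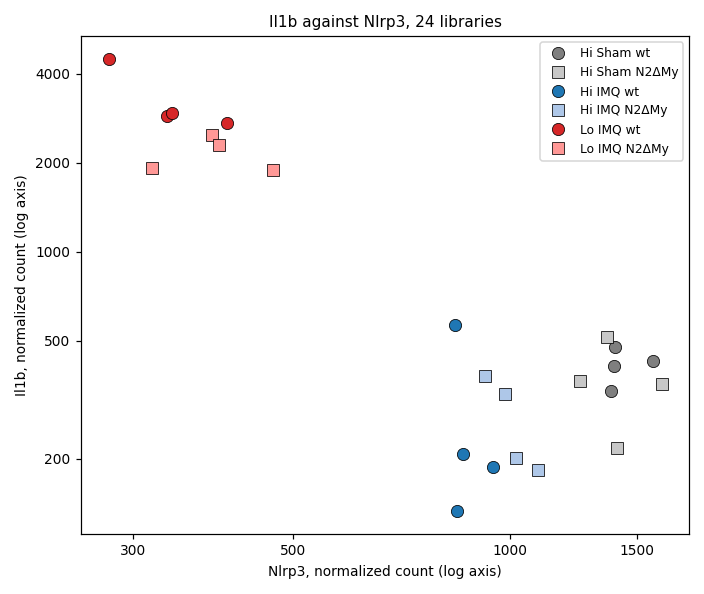
Normalized count of Il1b (vertical, logarithmic) against that of Nlrp3 (horizontal, logarithmic), 1 point per library, coloured by group. The 8 Ly6Clo libraries lie at the upper left, with Il1b from 1884 and Nlrp3 up to 469, and the 16 Ly6Chi libraries at the lower right, with Il1b up to 568 and Nlrp3 from 839.

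The plot of Il1b against Nlrp3 sets the cytokine gene against the inflammasome sensor gene in the same library. Ly6Clo and Ly6Chi libraries shared no value of either gene. Among Ly6Chi libraries, Sham and IMQ groups separated along the Nlrp3 axis (1253–1624 against 839–1096) while their Il1b values overlapped (218–515 against 133–568).

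Pycard (ENSMUSG00000030793.4, chromosome 7, 127989708–127993867, minus strand) encodes ASC. It was the only member that rose with IMQ past both thresholds in either genotype. In wt Ly6Chi cells its counts were 761, 662, 903 and 835 after Sham and 1151, 1163, 1188 and 1529 after IMQ (1.59-fold, log2 fold change 0.67 ± 0.13, adjusted p = 0.00488). In N2ΔMy Ly6Chi cells they were 768, 909, 876 and 981 after Sham and 1364, 1413, 1721 and 1611 after IMQ (1.73-fold, 0.79 ± 0.11, adjusted p = 0.00107). Neither pair of groups overlapped. Without the highest wt IMQ library the wt value was 0.57, and without Sham replicate 2 it was 0.59, both under the fold threshold of 0.6. Ly6Clo cells of IMQ-treated mice did not show the higher level: 797, 746, 748 and 750 in wt and 853, 901, 1080 and 876 in N2ΔMy mice, each below all Ly6Chi IMQ libraries of its genotype (both log2 fold changes -0.72, adjusted p = 4.5e-04 and 9.8e-04). Its exons overlap those of an antisense gene (RP24-144C5.1) over 485 bases, which was at most 32 in any library.

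Casp1 (ENSMUSG00000025888.5, chromosome 9, 5298517–5307265), the gene of the cleaving protease, did not separate any of the groups compared. Its group means ran from 822 ± 156 in wt Ly6Chi IMQ to 1023 ± 172 in N2ΔMy Ly6Clo cells, and all neighbouring groups overlapped. The wt libraries had 749, 836, 1023 and 980 in Sham Ly6Chi, 659, 727, 908 and 994 in IMQ Ly6Chi and 722, 874, 1100 and 1148 in Ly6Clo cells, and in each of these groups replicates 3 and 4 lay above replicates 1 and 2. The N2ΔMy libraries lay between 813 and 1258 in Sham Ly6Chi cells, and had 745, 719, 1178 and 1169 in IMQ Ly6Chi and 825, 1206, 943 and 1119 in Ly6Clo cells, the last without that order. The N2ΔMy subset difference was 0.45 within the first run and -0.19 within the second, and neither passed (adjusted p = 0.119 and 0.255). The 95% interval of the log2 subset difference was -0.16 to 0.60 in wt and -0.29 to 0.55 in N2ΔMy cells. With the replicate block the wt difference of 0.22 ± 0.08 had an adjusted p of 0.028, with Ly6Clo higher in 4 of 4 same-numbered pairs, and stayed under the fold threshold.

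Casp4 (ENSMUSG00000033538.13, chromosome 9, 5308828–5336783), its neighbour, encodes the caspase that senses bacterial lipopolysaccharide inside cells. In wt Ly6Chi cells after Sham its counts were 764, 852 and 820 in replicates 1 to 3 and highest in replicate 4 (830 ± 51.2, SD, n = 4), all above the 517, 470, 584 and 673 after IMQ. The wt Ly6Clo libraries had 333, 274, 442 and 498, of which only the last reached into the IMQ Ly6Chi range. The treatment change of -0.58 ± 0.12 (adjusted p = 0.00844) and the subset difference of -0.56 ± 0.19 (adjusted p = 0.0415) were past the adjusted p but just under the fold threshold. The treatment change passed the fold threshold without IMQ replicate 4 (-0.67) or Sham replicate 1 (-0.61), and the subset difference without Ly6Clo replicate 3 (-0.64) or 4 (-0.70) or Ly6Chi replicate 2 (-0.64). Both passed within the first run (-0.71 and -0.70, adjusted p = 0.0139 and 0.0152) and neither within the second (-0.44 and -0.42, adjusted p = 0.114 and 0.115). In N2ΔMy cells the corresponding values were -0.48 in both comparisons (adjusted p = 0.11 and 0.0869). With the replicate block these were past the adjusted p (0.0159 and 0.00426) but not the fold threshold. Casp4 was lower in 4 of 4 same-numbered pairs in each.

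Gsdmd (ENSMUSG00000022575.5, chromosome 15, 75862327–75867408) encodes gasdermin D, the pore-forming substrate. It was higher in Ly6Clo than in Ly6Chi cells of IMQ-treated mice. The wt values were 3264, 3212, 3013 and 3103 against 1691, 1843, 1809 and 1674 (1.79-fold, log2 fold change 0.84 ± 0.08, adjusted p = 1.5e-05), and the N2ΔMy values 3126, 3151, 2656 and 2569 against 1930, 1771, 1840 and 1668 (1.60-fold, 0.67 ± 0.10, adjusted p = 6.6e-04). There was no overlap in either genotype. The N2ΔMy value was 0.58 within replicates 3 and 4 and 0.59 after quantile normalization. With IMQ in wt Ly6Chi cells, Gsdmd was 2394, 2117, 1989 and 2053 after Sham, all above the IMQ values, a change of -0.28 ± 0.08 (adjusted p = 0.0405) that is under the fold threshold.

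Counted over the members, the subset comparison in wt mice called 6 of 10 (Il1b and Gsdmd higher; Il1r2, Il18, Nlrp3 and Pycard lower) against 24.6% of all tested genes, with Il1r2 counted although it passed the filter only through Ly6Chi libraries (5 without it), and in N2ΔMy mice 5 of 10, the same genes without Il1r2, against 17.4%. IMQ against Sham called 3 of 10 in wt Ly6Chi cells (Pycard higher; Nlrp3 and Il18 lower) against 9.49%, and 1 of 10 in N2ΔMy Ly6Chi cells (Pycard) against 8.70%. With the replicate block the treatment counts became 4 in wt and 2 in N2ΔMy mice and the N2ΔMy subset count 6, while the wt subset count was again 6. The median log2 fold change of the members was -0.36 in the wt and -0.48 in the N2ΔMy subset comparison and -0.39 and -0.34 in the treatment comparisons, while the median of all tested genes was within 0.02 of 0 in each. Libraries of the groups compared did not overlap for 6 and 4 members in the subset comparisons (35.4% and 27.8% of all genes) and for 6 and 3 in the treatment comparisons (21.5% and 19.5%). Other markers moved with the subset. Of the 7 tested neutrophil genes, 4 were lower in wt Ly6Clo cells (sums of 3121–4151 against 8594–15253), and in N2ΔMy Ly6Clo cells 5 were lower and 1 higher (2146–3366 against 9632–14905). Of 8 macrophage genes, 2 were higher and 2 lower in wt Ly6Clo cells (5557–7393 against 3962–5496), while 6 were higher and 0 lower in N2ΔMy Ly6Clo cells (12955–17383 against 5861–8599). Their part in the subset differences was not tested. The subset and treatment comparisons of a genotype share the IMQ Ly6Chi libraries, so their values are given side by side and not as separate evidence.

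**Figure D3:**
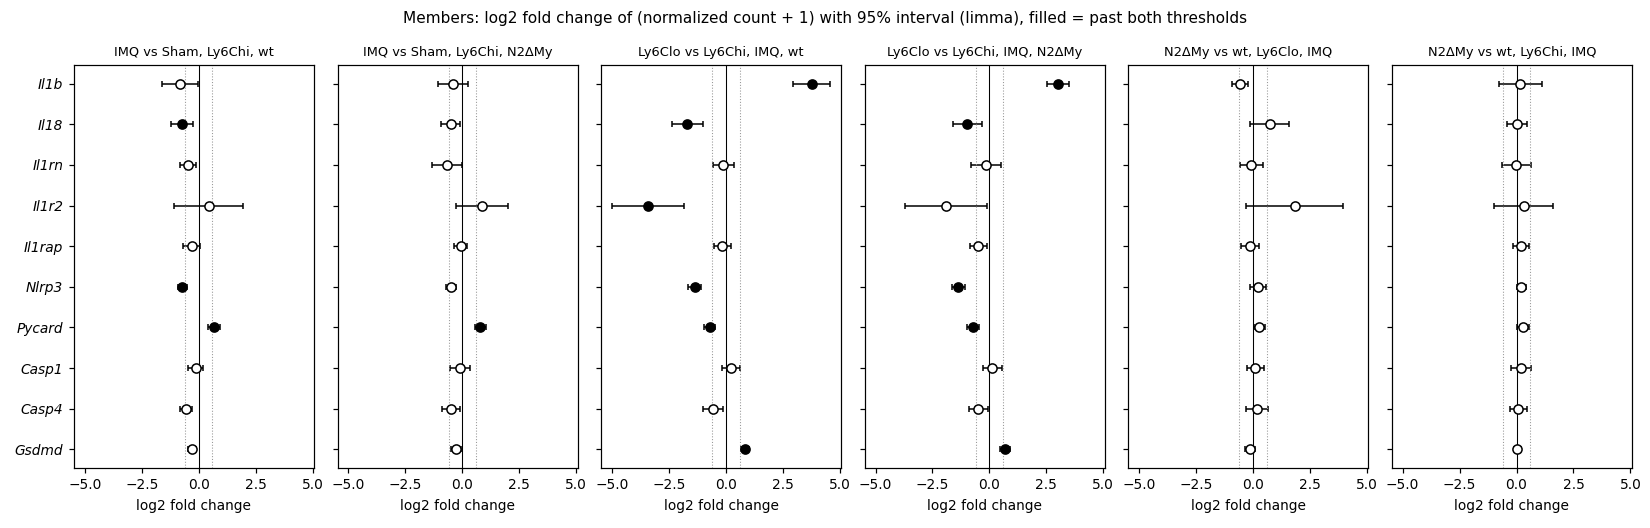
Log2 fold change of each member (points) with its 95% interval (bars) in 6 comparisons; filled points passed both thresholds, and dotted lines mark the fold threshold of 0.6. Il1b lies at 3.77 and 3.02 in the subset panels, and no point is filled in the 2 genotype panels.

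Between genotypes no member passed the thresholds. In Ly6Clo cells of IMQ-treated mice 0 of 10 members were called in limma, against 4.78% of all tested genes, with 2 members at an unadjusted p under 0.05. In Ly6Chi cells 0 of 10 were called after IMQ (background 0.0267%, with 0.0178% higher and 0.00890% lower; 2 members at an unadjusted p under 0.05) and 0 of 10 after Sham (background 0.0178%, with 0.00890% in each direction and 0 such members). No member was without overlap there, against 3.84% of all genes after IMQ and 3.15% after Sham. The nearest was Il1b in Ly6Clo cells, where the 4 N2ΔMy libraries (1884–2474) lay below the 4 wt libraries (2718–4495). The log2 fold change was -0.58 ± 0.16 with a 95% interval of -0.94 to -0.22 (adjusted p = 0.0626 in limma, 0.00253 with the replicate block, and p = 0.0286 in a two-sided exact permutation test, the smallest that 70 splits allow). In the second run it was -0.74 (adjusted p = 0.165), and leaving out 1 library it ranged from -0.66 to -0.42 (adjusted p from 0.0538 to 0.154), so no fit passed both thresholds. Pycard was the other member without overlap in these cells, 1.22-fold higher in N2ΔMy mice (0.28 ± 0.10, adjusted p = 0.153), and non-overlap was seen in 12.8% of all genes. For Il1r2 and Il18 the intervals were too wide to place a bound near 0 (-0.29 to 3.95 and -0.11 to 1.58). The interaction of genotype and subset called 0 of 10 members (background 1.03%, with 0.971% higher and 0.0623% lower, and 0 members at an unadjusted p under 0.05), with -0.75 ± 0.48 for Il1b (adjusted p = 0.862). The interaction of genotype and treatment in Ly6Chi cells also called 0 of 10 (background 0%, 0 at an unadjusted p under 0.05).

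The N2ΔMy Ly6Clo libraries also differed from wt in other cell markers: 3 of 4 classical genes were higher, 5 of 7 patrolling genes lower and 7 of 8 macrophage genes higher, with macrophage sums of 12955–17383 against 5557–7393. Their part in the Il1b values was not tested. In Ly6Chi cells, 4 of the 7 tested neutrophil genes rose with IMQ in wt and 5 in N2ΔMy mice, while 3 and 2 were not called and 0 were lower. Only 7 of the 12 listed genes passed the filter, and Camp was at 0 in all wt Ly6Chi libraries. The sum of the 12 genes went from 6629–7157 to 8594–15253 in wt and from 6082–6603 to 9632–14905 in N2ΔMy mice. S100a8 made up part of that, with at most 12 in Sham and 402 to 3443 in IMQ libraries, while Ly6g was at 0 in all of the latter. S100a8 passed the filter only through libraries of IMQ-treated mice, the side where it is higher, so these neutrophil counts are a description. Of the 3 tested dendritic cell genes, 2 were lower after IMQ in each genotype (sums from 531–832 to 267–485 in wt and from 580–1009 to 295–408 in N2ΔMy mice). Of 8 macrophage genes, 2 were lower and 0 higher in wt mice (7331–8810 to 3962–5496), and 2 lower and 2 higher in N2ΔMy mice (7935–9984 to 5861–8599). Of 7 patrolling genes, 2 were higher in wt and 0 in N2ΔMy mice. The part of all these genes in the Pycard, Nlrp3 and Il18 values was not tested.

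Levels were set against each other per kilobase of exon. The length is that of all exons listed for a gene (3800 bases for Pycard, 5535 for Il1rn and 11360 for Il1rap), and transcripts can be shorter. Ranks between genes depend on that length. By count alone, Pycard (mean 1024 over the 24 libraries) was above Casp1 (942). In Sham Ly6Chi cells of wt mice Gsdmd was highest at 900 ± 75.0 per kilobase, followed by Casp1 at 599 ± 84.8 and Nlrp3 at 355 ± 23.1. Il18, Casp4, Il1b and Pycard came next at 269, 224, 217 and 208, with overlapping libraries, and Il1rap, Il1rn and Il1r2 were at 31.7, 31.2 and 18.1. In wt Ly6Clo cells Il1b ranked first at 1709 ± 435, above Gsdmd at 1324 ± 47.2 in all libraries (lowest Il1b 1425, highest Gsdmd 1373). Casp1 stayed close to its earlier level at 642 ± 133, while Nlrp3 was at 83.7 ± 12.8. In N2ΔMy Ly6Clo cells Gsdmd (1210 ± 129) and Il1b (1124 ± 152) overlapped.

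The pathway was widened to 87 further genes, all listed in the table, of which 66 passed the filter. None of the 7 further ligands was among them. Il1a reached 14 in 1 Sham library and 4 at most elsewhere, Il33 was at 0 throughout, and Il36g (listed as Il1f9) was at 0 in all 8 Sham libraries, at 4 to 17 in the 8 Ly6Chi IMQ libraries and at 3 or less in Ly6Clo cells.

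After IMQ, wt Ly6Chi cells had 3 of the 66 genes higher (background 4.43%) and 10 lower (5.07%). Higher were Il18rap, the accessory chain of the IL-18 receptor (log2 fold change 1.91), Naip1, a sensor of bacterial needle protein (1.76), and Gsdme (listed as Dfna5, 0.60). The lowest were Trim30a (-1.29), Cd36 (-1.24), Gbp7 (-1.19), the NF-κB inhibitor gene Nfkbie (-1.12) and Tnfaip3, which encodes the NF-κB brake A20 (-1.06). N2ΔMy Ly6Chi cells had 1 gene higher (background 4.15%), again Il18rap (2.75), and 10 lower (4.55%), led by Trim30a (-1.20), Nfkbie (-1.16), Tnfaip3 (-1.09), the guanylate-binding protein gene Gbp5 (-0.94) and Irak2 (-0.79), a kinase of the IL-1 receptor chain. Il18rap had 39–65 counts in Sham and 147–264 in IMQ cells of wt mice, while its partner Il18r1 did not exceed 10 in any library.

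In Ly6Clo against Ly6Chi cells of IMQ-treated wt mice, 9 of the 66 genes were higher (background 11.9%) and 14 lower (12.7%). Higher were Cd36 (3.96), a scavenger receptor gene also found in macrophages, and the NF-κB targets Ccl3 (2.29), Tnf (1.79), Nfkbiz (1.77) and Tnip1 (1.70). Lower were the IL-36 receptor gene Il1rl2 (-3.80), Casp12 (-3.75), Ninj1, which drives membrane rupture (-2.06), Gbp3 (-1.97) and Il18rap (-1.90). Il1rl2 and Casp12 passed the filter only through a Ly6Chi library, the side where they are higher (highest values 55 and 52), so their calls in either genotype are a description. In N2ΔMy mice 6 were higher (background 9.01%) and 11 lower (8.38%): Cd36 (4.38), Nfkbiz (1.60), Tnf (1.22), Irak3, a negative regulator of the IL-1 receptor chain (1.12), and Tnip1 (1.06) against Il1rl2 (-2.82), Ninj1 (-1.999), Mefv, the pyrin gene (-1.87), Gsdme (Dfna5, -1.52) and Il18rap (-1.24). By role, 5 of 13 NF-κB target genes were higher and 0 lower in wt mice, and 3 and 0 in N2ΔMy mice, while 0 of 6 caspase and gasdermin genes were higher and 3 and 2 lower. The 3 in wt mice include Casp12, so that count is in part fixed by the filter. Of 19 regulator genes, 2 were higher and 7 lower in wt mice, and 2 higher and 6 lower in N2ΔMy mice. Of 4 receptor genes, 0 were higher and 2 lower in each genotype, and Il1rl2 is 1 of the 2 each time, so that count is in part fixed by the filter. Of 10 sensor genes, 1 was higher and 2 lower in wt and 0 and 1 in N2ΔMy mice, and of 14 signal chain genes 1 was higher and 0 lower in each. The median log2 fold change of all 66 was 0.11 in wt and 0.06 in N2ΔMy mice. Ly6Clo libraries had 93–195 counts of Ninj1 against 500–923 in Ly6Chi IMQ libraries, while Casp12 and Il1rl2 were below 60 in all. Members of the Naip, Gbp and Nlrp1 families have near-identical copies, so the split of their reads is uncertain.

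**Figure D4:**
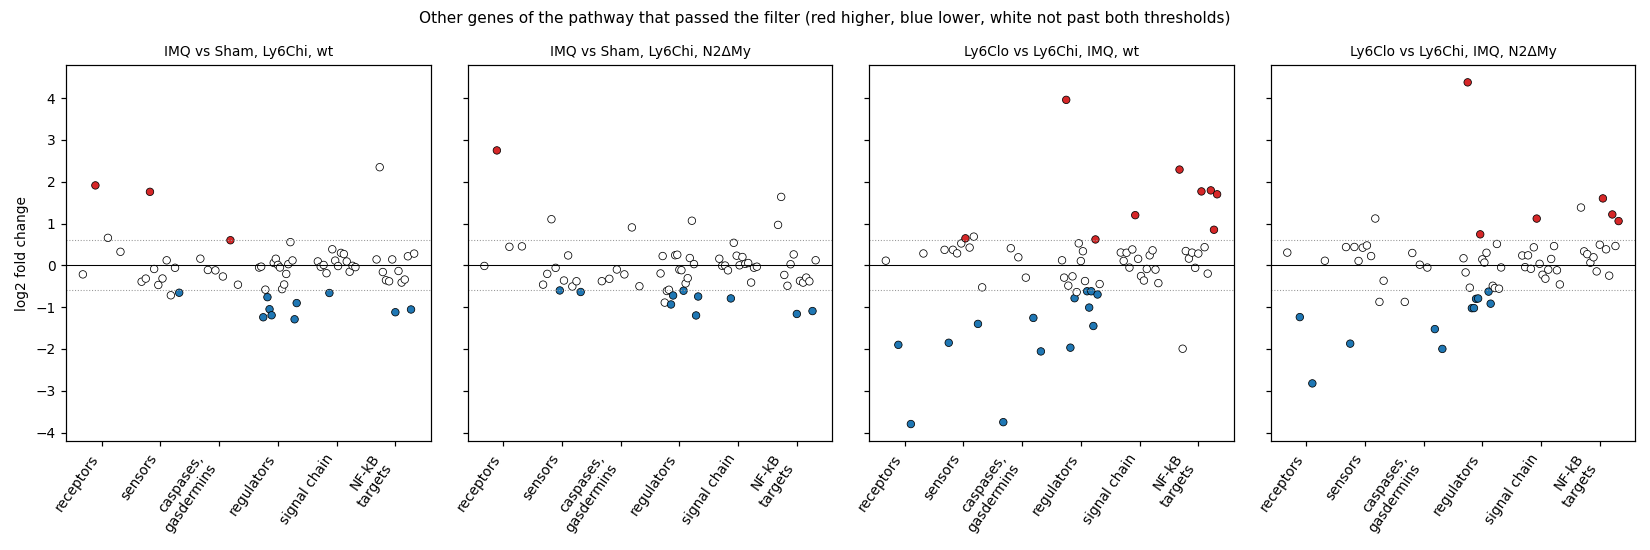
Log2 fold change of the 66 further pathway genes, 1 point per gene, by role (horizontal) in 4 comparisons; red points were higher and blue points lower past both thresholds, and dotted lines mark 0.6. In the subset panels coloured points among NF-κB targets are all above 0 and those among caspases and gasdermins all below 0.

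Between genotypes, 4 of the 66 genes were higher in N2ΔMy Ly6Clo cells (background 3.12%) and 1 was lower (1.67%). Cd36 (1.83), Gbp3 (1.25), Serpinb1a, which encodes an inhibitor of neutrophil proteases (1.16), and the ATP-gated channel gene P2rx4 (0.72) were higher. Tnip1, whose product binds A20, was lower (-0.83), with 4069–4463 in N2ΔMy and 7050–8955 in wt libraries. In Ly6Chi cells 0 of 66 were called after either treatment (background 0.0267% and 0.0178%).

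Likeness of pattern was measured as the root mean square difference between centred log2 group means over the 6 groups, for the 5 members whose means spanned at least 1. Nearest to Il1b were RP23-114F4.2 (0.18), Ston2 (0.25) and Traf1 (0.31), and nearest to Nlrp3 were Ppfia4 (0.09), Pgap1 (0.10) and RP24-150C17.2 (0.11). Il18 was most like Sec24d (0.08), Ccdc102a (0.09) and Slc29a3 (0.11), and Casp4 most like Ankle2 (0.04), Abcd3 (0.05) and Irf9 (0.06). Il1r2 was most like Synj2, Nim1k and Vdr (0.16, 0.16 and 0.19).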

How the data were processed

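RNA of the sorted monocytes was sequenced by the authors from a stranded total RNA kit. Per the labels and the study's methods, reads were trimmed (Trim Galore 0.4.4), aligned with STAR 2.5.3a to GRCm38.p6, counted per gene and normalized with DESeq2; the strand setting of the counting is not given in the sources used here. The values deposited by the authors are a score: whole numbers rounded from normalized counts, so no count model was fitted. Depth was inferred from which whole numbers occur, is approximate, and intervals from counting were not given.

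Values were compared as log2(value + 1), which understates changes of low genes, with limma 3.58.1 (trend; R 4.3.3) on the 8 libraries of 2 groups, 16 for an interaction and 24 for the F-test. Calls required, over 11230 genes, a p of at most 0.05 after Benjamini-Hochberg adjustment together with a log2 fold change of 0.6 or more in either direction. Single values were also tested by two-sided exact permutation (70 splits). Libraries with the same replicate number deviated together in all 7 comparisons of 2 groups (correlations 0.16 to 0.619), so values with the replicate number as a block are given where they change a call. The 2 runs of library numbers (replicates 1 and 2, replicates 3 and 4) are not called a batch in the labels.

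All members were described. Of the further lists, at most 5 called genes per direction and comparison were named. Members and lists were chosen with earlier results of these data known. Some marker genes of the lists are not reported here. Promoter sequences are from RefSeq, GRCm38.p6. Alternatives were the pseudocount, the filter, the scaling, the trend, the libraries in the fit, the block, the run and leaving out each library. Figures were drawn with matplotlib 3.10.9, and tables made with pandas 2.3.3 and scipy 1.17.1 under Python 3.11.15 (numpy 2.4.6).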

Additional observations from a re-analysis of the deposited data

Results flagged for a closer look

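In groups of 4 libraries, a library was singled out where its gap to the next one, as a share of the range of the group, was above the 95% critical value of Dixon's test. Over the 10 members in each of the 6 groups, 8 of 60 combinations held such a library. Chance gives about 1 in 20 for separate groups, but these combinations share the same 24 libraries, so the 2 shares cannot be set against each other. In wt Ly6Chi cells after IMQ, replicate 4 had 568 normalized counts of Il1b and 1529 of Pycard, each the highest of its group, and replicate 1 had 119 of Il18, the lowest. In wt Ly6Clo cells, replicate 4 had 4495 of Il1b, replicate 3 had 7 of Il1r2 and replicate 1 had 797 of Pycard. In Sham Ly6Chi cells, replicate 4 of N2ΔMy mice had 296 of Il18 and replicate 1 of wt mice had 1579 of Nlrp3.

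Of the 66 further pathway genes tested, 1 had a higher and 1 a lower subset change in N2ΔMy than in wt mice in limma, against 0.971% and 0.0623% of all tested genes (1.03% in all). P2rx4 had an interaction of 0.68 ± 0.15 (adjusted p = 0.0338), with 449–479 normalized counts in wt and 731–776 in N2ΔMy Ly6Clo libraries against means of 597 and 622.5 in Ly6Chi cells. Tnip1 had an interaction of -0.64 ± 0.15 (adjusted p = 0.0439), with means of 7723 and 4343 against 2377 and 2093.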

How the results depend on the processing

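Of the 15 calls of a member in a comparison of 2 groups, none changed sign under any alternative run. Over the settings that kept all libraries or 1 run, 170 values of called members kept their call and 10 lost it, while 890 values of uncalled members stayed uncalled and 10 gained a call. Leaving out 1 library, 107 kept and 13 lost their call, and 8 gained one. Il18 in wt Ly6Chi cells (IMQ against Sham) lost its call with no filter (adjusted p = 0.169), without the trend (0.0626), with all 24 libraries (0.081) and within each run (0.189 and 0.0522). Il18 in the N2ΔMy subset comparison lost it with no filter (0.142) and within the second run (0.0521), and Pycard in the wt subset comparison fell to -0.58 within the first run. The replicate block raised the count of called members for IMQ against Sham in N2ΔMy mice from 1 to 2, as did the run as a covariate (2), and beside the calls named in the report it changed no other call in a comparison of 2 groups; the F-test passed 9 members with it. Leaving out 1 library at a time, the count was 1 to 4 for IMQ against Sham in wt mice (1 without wt Sham replicate 2) and 1 in N2ΔMy mice. It was 6 to 7 and 4 to 6 in the wt and N2ΔMy subset comparisons, and 0 in the genotype comparisons and interactions. In the F-test, leaving out 1 replicate number from all groups gave 6 to 7. Il1r2 was the lowest member, at 1 to 117 normalized counts; depth was not tested as a limit.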
